A study of Mus musculus with 6 samples.

Results

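The subcortical maternal complex is a protein assembly beneath the plasma membrane of the mammalian oocyte, and 6 genes encode the members described here: Nlrp5, Ooep, Tle6, Khdc3, Padi6 and Zbed3. They were chosen by symbol, with Khdc3 taken from the row that carries its older symbol 2410004A20Rik, and all 6 of the 6 had a row among the 23235 rows of the table. Their transcript levels were compared between Rtcb KO and WT oocytes of C57BL/6 mice, all collected as fully-grown germinal vesicle (GV) oocytes, the prophase-arrested cells that have finished growth and have not resumed meiosis. Rtcb encodes the RNA ligase that joins tRNA exons after intron removal and re-ligates the cleaved Xbp1 mRNA. All sample titles carry the mark 6W, whose meaning the labels do not give. Both genotypes came from females given PMSG, a gonadotropin that stimulates follicle growth, and each of the 3 libraries per genotype pooled 10 oocytes. The sources used here give neither the deleted part of Rtcb nor the driver of the deletion. The labels do not tie the libraries to separate females, and the p-values below therefore rest on a spread between libraries that may be technical.

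NLRP5, OOEP and TLE6 bind one another in the core of the complex, to which KHDC3 attaches. PADI6 is required for the cytoplasmic lattices, the fibrous arrays that fill the mouse oocyte and store maternal proteins. ZBED3 was described in mouse oocytes as a further component that acts in organelle distribution and symmetric division of the zygote. The genes are transcribed during oocyte growth and their products are used by the embryo, which is why they are called maternal-effect genes: embryos of mouse mothers without Nlrp5, Ooep, Tle6 or Padi6 stop developing in early cleavage.

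The transcripts of 4 of the 6 genes were lower in Rtcb KO oocytes, and those of 2 stood near their WT level. Padi6 was 4.55-fold lower by the means as deposited, Nlrp5 3.98-fold, Tle6 2.92-fold and Zbed3 2.22-fold. These falls were smaller under the other scalings described below. Khdc3 was 1.27-fold lower and Ooep 1.13-fold lower, and the sign of these 2 differences turned with the scaling of the libraries. The proportions between the members differed accordingly.

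Sequences upstream of the start sites are shown for 3 genes that stand at the ends of this range, Padi6 and Nlrp5, which fell furthest, and Ooep, which did not. The sequences come from the RefSeq promoter table of build GRCm38.p6, whose windows hold 250 bases before and 50 bases after each annotated start. They are printed 5′ to 3′ on the strand of the gene and end before the first annotated exon base. Capitals mark matches, on either strand, to CANNTG (the E-box bound by basic helix-loop-helix factors such as FIGLA), TAATTG or TAATTA (core sites of homeodomain factors such as NOBOX and LHX8) and TATAAA (the TATA box). The Padi6 stretch is chr4:140742644-140742893 on the minus strand, and the Ooep stretch is chr9:78378726-78378838 on the minus strand. Nlrp5 has 2 annotated starts on the plus strand, with the upstream stretch at chr7:23385639-23385888 and the downstream one at chr7:23403852-23404101.
Padi6: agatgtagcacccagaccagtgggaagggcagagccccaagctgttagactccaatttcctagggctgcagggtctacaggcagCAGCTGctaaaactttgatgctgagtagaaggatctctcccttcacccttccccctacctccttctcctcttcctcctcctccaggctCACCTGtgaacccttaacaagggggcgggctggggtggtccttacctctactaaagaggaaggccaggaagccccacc
Nlrp5 upstream start: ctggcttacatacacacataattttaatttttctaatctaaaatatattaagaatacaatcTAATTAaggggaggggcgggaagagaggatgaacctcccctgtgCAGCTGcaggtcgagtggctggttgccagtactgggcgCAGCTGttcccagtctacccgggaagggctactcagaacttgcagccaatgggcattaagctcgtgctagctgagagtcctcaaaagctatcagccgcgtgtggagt
Nlrp5 downstream start: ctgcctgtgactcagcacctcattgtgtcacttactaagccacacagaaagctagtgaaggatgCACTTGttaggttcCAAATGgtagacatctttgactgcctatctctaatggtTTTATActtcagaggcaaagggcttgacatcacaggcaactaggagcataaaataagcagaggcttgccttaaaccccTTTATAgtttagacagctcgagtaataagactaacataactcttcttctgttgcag
Ooep: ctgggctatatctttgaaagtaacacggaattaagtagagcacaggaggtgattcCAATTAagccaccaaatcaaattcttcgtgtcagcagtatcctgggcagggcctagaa

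The Padi6 stretch holds 2 E-box matches, and each Nlrp5 stretch also holds 2. The upstream Nlrp5 stretch has 1 TAATTA match, and the downstream one has 2 TATAAA matches, both read on the opposite strand. The Ooep stretch holds 1 TAATTG match, read on the opposite strand. Over the full windows of 300 bases, CANNTG was found in 10 of the 10 windows of the 6 genes, against 72.3% of the 32851 windows in the table. TAATTG was found in 2 of the 10 windows, those of Padi6 and Ooep (8.0% of all windows). TAATTA was in 1 of the 10, a window of Nlrp5 (5.29%), and TATAAA in 2, of Nlrp5 and Zbed3 (13.6%). The TATAAA match of Zbed3 was likewise read on the opposite strand. These are matches of letters, and no binding was measured.

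The assay was Smart-seq2, which copies polyadenylated RNA over its full length, with ERCC spike-in RNA in the lysis buffer. The values are FPKM, fragment counts scaled by transcript length and by the size of the library, which the authors normalized to the spike-ins. They sum to between 943926 and 999507 in the Rtcb KO libraries and between 1267730 and 1347014 in the WT libraries. The read depth behind them is unknown. Rtcb itself, listed as D10Wsu52e, was at 3.82, 2.62 and 2.49 FPKM in the 3 Rtcb KO libraries, against 136, 133 and 113 FPKM in the 3 WT libraries. The oocyte identity of the libraries was checked by 8 oocyte markers, all of which passed the filter on low values. Their summed level was 20597 to 21949 FPKM in Rtcb KO libraries, against 33410 to 36282 FPKM in WT libraries. Of these markers, 6 were called lower in Rtcb KO, among them Zp1 (672 against 1459 FPKM), Zp3, Gdf9 and H1foo. A lower call was made for 54.0% of all tested genes and a higher call for 9.29%. The other 2, named after their values were seen, were not called: Ddx4 averaged 42.4 ± 12.5 FPKM in Rtcb KO and 30.8 ± 7.95 FPKM in WT, and Oosp1 averaged 4379.9 ± 857 FPKM in Rtcb KO and 4454 ± 1104 FPKM in WT. With the genotype-wide spike-in factors described below removed, 1 of the 8 was called lower and 2 higher, and at equal totals 3 were called lower and 1 higher. The shares over all tested genes were 18.0% lower and 25.7% higher with the factors removed, and 25.8% lower and 19.0% higher at equal totals. The 13 markers of granulosa and cumulus cells summed to 47.4 to 59.3 FPKM in Rtcb KO and 59.3 to 65.8 FPKM in WT, and 7 of the 13 averaged under 1 FPKM. The sums hide changes in both directions. Cyp19a1, the largest by the means, averaged 19.8 ± 2.34 FPKM in Rtcb KO and 37.5 ± 2.17 FPKM in WT and was called lower. Nr5a2 averaged 13.4 ± 1.08 FPKM in Rtcb KO and 9.45 ± 1.88 FPKM in WT and was called higher. Inha and Kitl were not called, and Inha reached 17.8 FPKM in Rtcb KO replicate 3. The 8 markers of stroma, theca and blood summed to 16.8 to 25.6 FPKM in Rtcb KO and 30.8 to 48.3 FPKM in WT, with Lum and Hba-a1 at 0 in every library. Most of each sum was Pecam1, which averaged 18.4 ± 1.44 FPKM in Rtcb KO and 38.4 ± 8.28 FPKM in WT. Lyz2, a marker of myeloid cells, was at 5.46 FPKM in Rtcb KO replicate 2, at 0 in the other 2 Rtcb KO libraries, and at 0.157 FPKM or less in WT libraries. Lum, Hba-a1 and Lyz2 were named after their values were seen. The part of these other cells in the results was not tested.

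The 12029 genes that averaged 1 FPKM or more over the 6 libraries were compared on the log2(FPKM + 1) scale with limma, a linear model with a moderated test, and called at a Benjamini-Hochberg adjusted p under 0.05 over all tested genes. All 6 members passed this filter, the lowest at 132 FPKM in Rtcb KO. Of the 6, 5 were called lower in Rtcb KO and 0 higher, where 54.0% of all tested genes were called lower and 9.29% higher. For 5 of the 6, all 3 Rtcb KO values lay below all 3 WT values, which held for 57.5% of tested genes. A lower call was thus the usual outcome in this table, and the size of the change says more about the members. Their median log2 fold change was −1.35, against −0.47 over all tested genes.

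Padi6, a peptidylarginine deiminase family member needed for the lattices, moved furthest. It was at 879, 581 and 778 FPKM in the 3 Rtcb KO libraries, against 4076, 3401 and 2698 FPKM in the 3 WT libraries. The groups were far apart, the highest Rtcb KO library standing below the lowest WT library. The means were 746 ± 152 FPKM in Rtcb KO and 3392 ± 689 FPKM in WT (SD, n = 3 each), a log2 fold change of −2.18 with an SE of 0.191 (limma adjusted p = 0.000162). Only 0.432% of tested genes had a log2 fold change lower than that of Padi6.

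Nlrp5, which encodes the NLR-family protein also known as MATER around which the core is built, was the least abundant member in every library. Its level was 169, 96.1 and 132 FPKM in Rtcb KO libraries, against 668, 519 and 395 FPKM in WT libraries, and the groups did not overlap. It averaged 132 ± 36.5 FPKM in Rtcb KO and 527 ± 137 FPKM in WT (log2 fold change −1.99, SE 0.239, limma adjusted p = 0.000317). Its change stood at the 0.549 percentile of all tested genes. Because these oocytes were pooled, fewer oocytes carrying a transcript and less of it per oocyte cannot be told apart, here and for every gene below.

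Tle6 encodes a Groucho-related protein that is a reported substrate of protein kinase A, and it fell next furthest. Its values were 1197, 896 and 1097 FPKM in Rtcb KO libraries, against 3660.4, 3198 and 2468 FPKM in WT libraries. No Rtcb KO library reached a WT library. The means of 1063 ± 154 FPKM in Rtcb KO and 3109 ± 601 FPKM in WT gave a log2 fold change of −1.54 (SE 0.166, limma adjusted p = 0.000233).

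Zbed3, a zinc-finger protein gene, was the most abundant member in both genotypes and among the highest rows of the whole table. It ranked 7, 4 and 7 in the Rtcb KO libraries, against 3, 3 and 2 in the WT libraries. Its level was 4979.6, 6492 and 5266 FPKM in Rtcb KO, against 11291, 12419 and 13381 FPKM in WT. The groups did not overlap, at 5579 ± 803 FPKM in Rtcb KO and 12364 ± 1046 FPKM in WT (log2 fold change −1.15, SE 0.129, limma adjusted p = 0.000249). In FPKM the gap between the genotypes was wider for Zbed3 than the WT level of any other member.

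Khdc3, the KH-domain protein known as FILIA that acts in chromosome segregation in mouse embryos, differed little. Its values were 824, 668 and 830.1 FPKM in Rtcb KO libraries, against 945, 1038 and 971 FPKM in WT libraries. The groups did not overlap, with means of 774 ± 91.5 FPKM in Rtcb KO and 985 ± 47.9 FPKM in WT (log2 fold change −0.35, SE 0.107, limma adjusted p = 0.0202). The call did not hold without WT replicate 2, where the adjusted p was 0.0777, leaving 4 members called lower. An annotated readthrough transcript, Gm20509, shares 790 exonic bases with Khdc3 in GENCODE vM21 and has no row here, so fragments of both cannot be told apart.

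Ooep, the second KH-domain protein, also known as FLOPED, was the second most abundant member in all 3 Rtcb KO libraries. It was at 3659, 4123 and 3642 FPKM in Rtcb KO libraries, against 3981, 4011 and 4871 FPKM in WT libraries. The groups overlapped, since the second Rtcb KO library exceeded 2 of the WT libraries. The means were 3808 ± 273 FPKM in Rtcb KO and 4288 ± 505 FPKM in WT, and the difference was not called (log2 fold change −0.17, SE 0.112, limma adjusted p = 0.222).

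**Figure D1:**
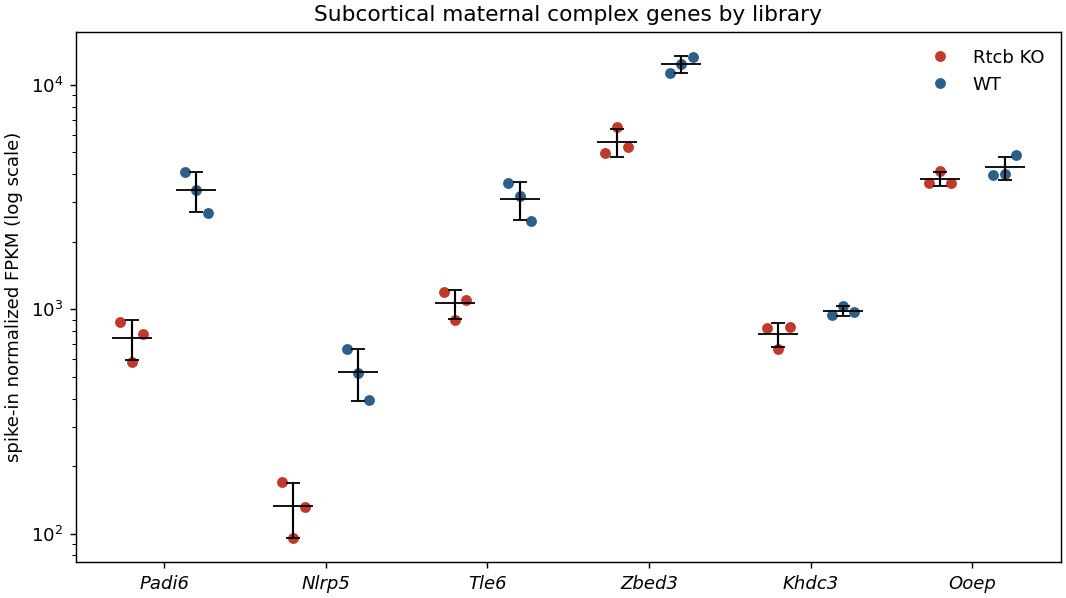
Levels of the 6 members in each library, as spike-in normalized FPKM on a log axis, with Rtcb KO libraries left of WT libraries for each gene; horizontal marks are means and bars are SD (n = 3 each). Padi6, Nlrp5, Tle6 and Zbed3 show a clear gap between the genotypes, Khdc3 a narrow one, and Ooep overlaps.

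How the libraries were scaled matters for the size of every change, and for the sign of those of Khdc3 and Ooep. Each deposited value carries a factor that is the same in all libraries of a genotype, 1.33 for Rtcb KO and 2 for WT up to a power of 10, a ratio of −0.58 on the log2 scale. The fit was therefore repeated with these factors removed, with every library set to equal totals, and with median-ratio rescaling, on the same 12029 genes. The median over all tested genes was −0.47 as deposited, 0.04 with the factors removed, −0.09 at equal totals and −0.02 after median-ratio rescaling.

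Padi6, Nlrp5, Tle6 and Zbed3 were called lower in Rtcb KO under each of the 4 scalings and without each library in turn. With the factors removed their log2 fold changes were −1.60, −1.41, −0.95 and −0.57, with limma adjusted p between 0.00116 and 0.0108. Ooep was called higher under each of the 3 other scalings, with log2 fold changes of 0.27 at equal totals (limma adjusted p = 0.0402), 0.35 after median-ratio rescaling (adjusted p = 0.0460) and 0.42 with the factors removed (adjusted p = 0.0207). Khdc3 was called in neither direction under these 3 scalings, at 0.08, 0.16 and 0.23 with adjusted p of 0.586, 0.227 and 0.114. The members' count was thus 4 lower and 1 higher under each of the 3. Of all tested genes 18.0% were then called lower and 25.7% higher with the factors removed, 25.8% lower and 19.0% higher at equal totals, and 21.7% lower and 22.8% higher after median-ratio rescaling.

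**Figure D2:**
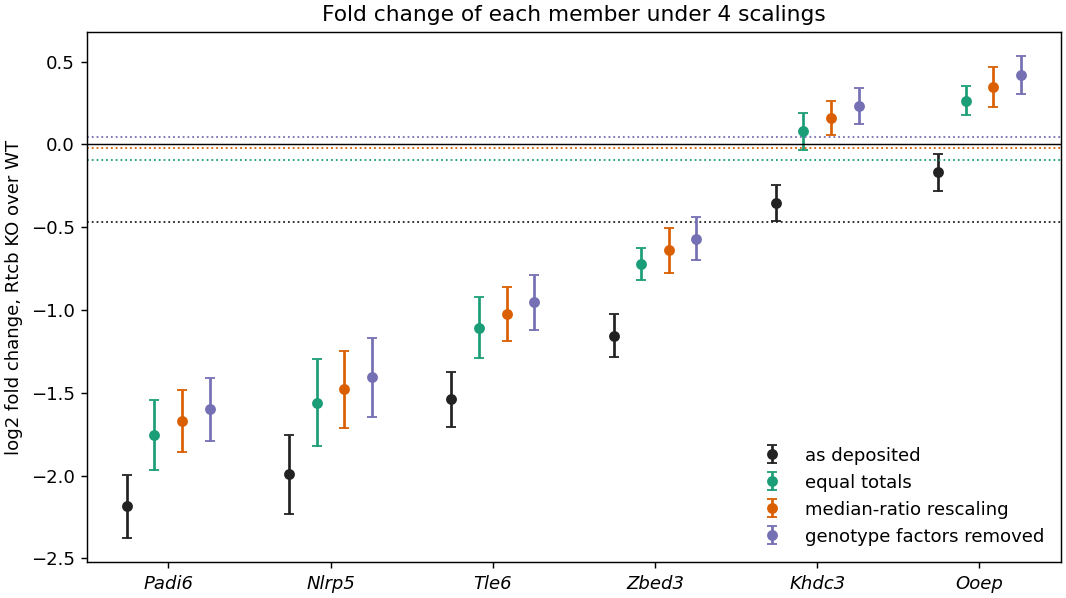
Log2 fold change of each member, Rtcb KO over WT, under 4 scalings of the libraries; points are limma estimates, bars are 1 SE, and dotted lines are the medians of all 12029 tested genes in the colour of the scaling. Padi6, Nlrp5, Tle6 and Zbed3 stay below the all-gene median in each scaling, while Khdc3 and Ooep stay above it and cross 0.

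Comparisons within a library do not depend on any such factor. The ratio of Padi6 to Ooep was 0.240, 0.141 and 0.214 in Rtcb KO libraries, against 1.02, 0.848 and 0.554 in WT libraries. Per length, Padi6 was thus several-fold below Ooep in every Rtcb KO library and closer to it in every WT library. On the log2 scale this ratio averaged −2.37 ± 0.405 in Rtcb KO and −0.35 ± 0.454 in WT (SD, n = 3 each), a difference of −2.02 or 4.05-fold. An exact permutation test over the libraries gave p = 0.1, the smallest that 3 against 3 allows (two-sided), and 0.125 after adjustment over the 15 pairs of members.

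Of the other ratios to Ooep, those of Nlrp5, Tle6 and Zbed3 were also lower. Nlrp5 to Ooep was 3.56-fold lower, Tle6 to Ooep 2.59-fold lower and Zbed3 to Ooep 1.98-fold lower in Rtcb KO, each without overlap. Zbed3 was 1.36 to 1.57 times the level of Ooep in Rtcb KO libraries and 2.75 to 3.10 times in WT libraries. Khdc3 to Ooep was 0.225, 0.162 and 0.228 in Rtcb KO libraries, against 0.237, 0.259 and 0.199 in WT libraries, and the groups overlapped (exact permutation p = 0.4). Set against Khdc3 in place of Ooep, the ratios of Padi6, Nlrp5, Tle6 and Zbed3 were 3.56-fold, 3.13-fold, 2.27-fold and 1.74-fold lower in Rtcb KO, also without overlap.

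Of the 15 pairs, 12 had ratios that did not overlap between the genotypes. Among all pairs of the 2063 genes that averaged 100 FPKM or more, 58.3% did not overlap, so unequal change between 2 abundant genes was common. Non-overlap of 3 against 3 libraries always gives the smallest possible exact permutation p of 0.1, so this p adds nothing for the 12. Leaving out a library changed no direction. The 3 pairs that overlapped were Khdc3 with Ooep, Nlrp5 with Zbed3, and Tle6 with Zbed3. Padi6 and Nlrp5 kept the closest proportion of the 12, with a ratio only 1.14-fold lower in Rtcb KO.

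**Figure D3:**
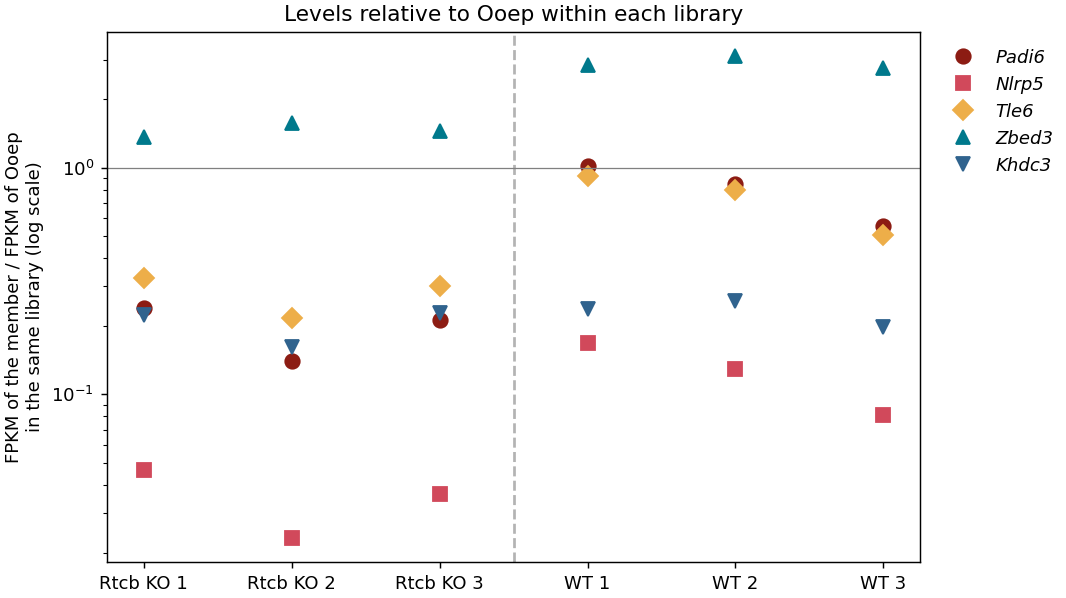
FPKM of 5 members divided by FPKM of Ooep in the same library, on a log axis, for the 3 Rtcb KO libraries left of the 3 WT libraries. Padi6, Nlrp5, Tle6 and Zbed3 sit lower in all Rtcb KO libraries, and Khdc3 lies between 0.162 and 0.259 throughout.

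The make-up of the group shifted with these ratios. The 6 genes together held 1.24%, 1.29% and 1.21% of the summed FPKM in Rtcb KO libraries, against 1.94%, 1.87% and 1.84% in WT libraries. The mean share was 1.25 ± 0.0387% in Rtcb KO and 1.88 ± 0.0533% in WT, without overlap (exact permutation p = 0.1, the smallest possible). Ooep alone held a larger share in Rtcb KO, at 0.388%, 0.413% and 0.375%, against 0.314%, 0.304% and 0.362% in WT. Khdc3 held 0.0799 ± 0.0113% in Rtcb KO and 0.0751 ± 0.00337% in WT, with overlap (exact permutation p = 0.5).

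Within the sum of the 6, Ooep made up 31.4 ± 0.557% in Rtcb KO and 17.4 ± 1.97% in WT, and Khdc3 6.43 ± 1.07% in Rtcb KO and 3.99 ± 0.202% in WT. Padi6 made up 6.22 ± 1.54% in Rtcb KO and 13.8 ± 2.84% in WT. The share of Zbed3 in the sum was 46.0 ± 4.10% in Rtcb KO and 50.1 ± 4.08% in WT, with overlap.

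**Figure D4:**
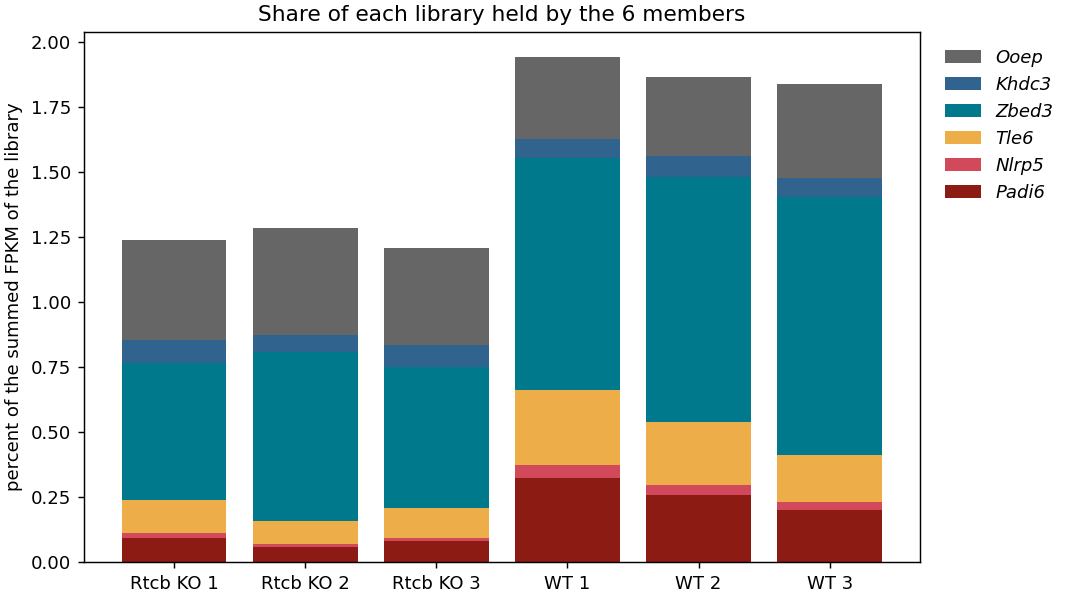
Percent of each library's summed FPKM held by each of the 6 members, stacked, with the 3 Rtcb KO libraries left of the 3 WT libraries. The stack reaches 1.21 to 1.29% in Rtcb KO and 1.84 to 1.94% in WT, and the Ooep block is the taller in Rtcb KO.

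The order of the levels per length changed in the middle of the list. In every Rtcb KO library the order was Zbed3, Ooep and Tle6, then Padi6 and Khdc3 in either order, and Nlrp5 last. In every WT library it was Zbed3, then Ooep and Padi6 in either order, then Tle6, Khdc3 and Nlrp5. Neighbours that exchanged places, Padi6 and Khdc3 in Rtcb KO and Ooep and Padi6 in WT, do not differ beyond their spread. Padi6 ranked 165, 351 and 224 among all rows in Rtcb KO libraries, against 22, 30 and 51 in WT libraries, and Tle6 ranked 103, 194 and 132 in Rtcb KO, against 27, 31 and 60 in WT. Ooep ranked much the same in both, at 20, 18 and 21 in Rtcb KO, against 23, 24 and 21 in WT.

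Libraries of 1 genotype also differed from one another, in a pattern that some members shared with genes outside the group. Nlrp5, Padi6 and Tle6 were each highest in Rtcb KO replicate 1 and lowest in Rtcb KO replicate 2, and each highest in WT replicate 1 and lowest in WT replicate 3. The oocyte marker Gdf9, and Nlrp2 and Tacc3 described below, had the same order in both genotypes. They were picked for this after their values were seen, and the pattern was thus not particular to the members. Ooep and Zbed3 were instead highest in Rtcb KO replicate 2 and in WT replicate 3. The spread was widest for Nlrp5, with a coefficient of variation of 27.6% in Rtcb KO and 26.0% in WT. It was narrow for Ooep, at 7.17% in Rtcb KO and 11.8% in WT, and for Khdc3, at 11.8% in Rtcb KO and 4.86% in WT. Over the 6 libraries the closest profiles were those of Nlrp5 and Padi6 (Euclidean distance 0.310 between log2(FPKM + 1) profiles, each centred on its mean) and the farthest those of Ooep and Padi6 (2.62).

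The members also differ in gene structure, and the split follows exon number except for Zbed3. In GENCODE vM21, Nlrp5 and Padi6 have 16 exons and Tle6 has 14, whereas Ooep and Khdc3 have 3 and Zbed3 has 2. Over 11171 tested protein-coding genes matched to that annotation, the median log2 fold change was −0.22 for 1 to 3 exons (1394 genes), −0.36 for 4 to 9 (4536), −0.57 for 10 to 13 (2006), −0.62 for 14 to 16 (1008) and −0.78 for 17 or more (2227). As a description, Spearman's rho across these genes was −0.31 for exon number, −0.16 for transcript length and −0.01 for GC content, and genes of one library share its depth and scaling. The boundaries of 3 and 14 exons were chosen after the members' values were seen.

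Padi6, Nlrp5 and Tle6 were far below the median of their own bin, whose middle 50% of genes lay between −0.94 and −0.24. Of the 3235 genes with 14 or more exons, 2.84% were as low as Tle6, and of the 1394 genes with up to 3 exons, 1.00% were. Ooep and Khdc3 lay within the middle 50% of the bin with 1 to 3 exons, −0.60 to 0.22, and Zbed3 lay below it. With the genotype factors removed, the difference between genes of 14 or more and of up to 3 exons was −0.49, against −0.52 as deposited. The values are totals per gene, so isoforms were not tested.

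**Figure D5:**
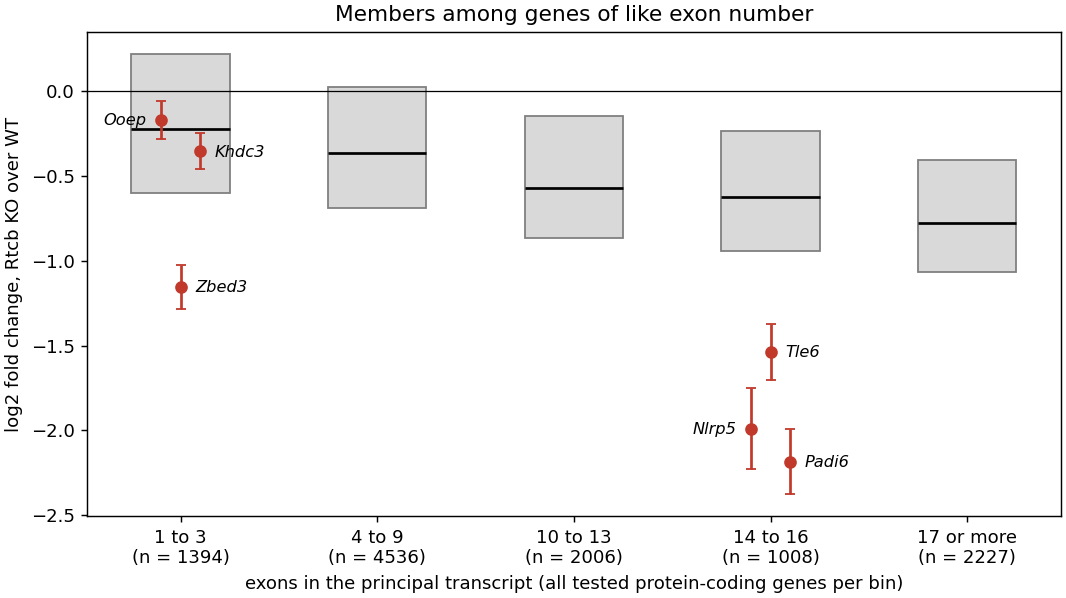
Log2 fold change, Rtcb KO over WT, by the number of exons in the gene's principal transcript; boxes span the first to the third quartile of all tested protein-coding genes in a bin with a line at the median, and red points are the members with 1 SE. Padi6, Nlrp5 and Tle6 lie below the box of 14 to 16 exons, Ooep and Khdc3 inside the box of 1 to 3 exons and Zbed3 below it.

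Of 6 genes whose proteins are reported to work with the complex or the lattices, 5 were called lower and 0 higher in Rtcb KO, where 54.0% of all tested genes were called lower. Their median log2 fold change was −1.43, against −0.47 over all tested genes. With the factors removed 4 were called lower and 1 higher, where 18.0% of all tested genes were called lower and 25.7% higher. Nlrp2, an NLR gene whose protein binds the complex, was at 75.3, 60.4 and 61.3 FPKM in Rtcb KO libraries, against 365, 255 and 207 FPKM in WT libraries (log2 fold change −2.02, SE 0.199, limma adjusted p = 0.000185). Nlrp14, whose protein stabilizes UHRF1 in the mouse oocyte cytoplasm, was at 668, 607 and 525 FPKM in Rtcb KO libraries, against 2853, 2199.6 and 1902 FPKM in WT libraries (log2 fold change −1.93, limma adjusted p = 0.000162). Both changes were of the size of that of Nlrp5, and no Rtcb KO value reached a WT value.

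Uhrf1, a DNA methylation cofactor kept in the cytoplasm of oocytes on the lattices, averaged 161 ± 6.62 FPKM in Rtcb KO and 455 ± 71.2 FPKM in WT (log2 fold change −1.48). Nlrp4f, an NLR gene whose protein associates with the complex in mouse, averaged 291 ± 29.8 FPKM in Rtcb KO and 759 ± 73.9 FPKM in WT (−1.38). The 2 ubiquitin-pathway components reported in the lattices changed least. Skp1a averaged 2905 ± 410.2 FPKM in Rtcb KO and 4626 ± 1040.1 FPKM in WT (−0.66, limma adjusted p = 0.0119), and its call was lost under each of the 3 other scalings. Ube2d3 averaged 1000.5 ± 78.0 FPKM in Rtcb KO and 1148 ± 84.5 FPKM in WT (−0.20, limma adjusted p = 0.105), and it was called higher after median-ratio rescaling (0.32) and with the factors removed (0.39).

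Relatives of the members by family were mixed. Of 24 listed genes 23 had a row and 18 were tested, with 2 called higher and 8 lower as deposited, 7 higher and 6 lower with the factors removed, and 6 higher and 7 lower at equal totals. The shares over all tested genes were 9.29% higher and 54.0% lower as deposited. They were 25.7% higher and 18.0% lower with the factors removed, and 19.0% higher and 25.8% lower at equal totals. Dppa5a, a KH-domain relative and the neighbour of Ooep, averaged 3497 ± 559.5 FPKM in Rtcb KO and 2442 ± 216 FPKM in WT, and it was called higher as deposited (log2 fold change 0.51, limma adjusted p = 0.0121). Tle4, a Groucho corepressor, was the other gene called higher (1.09), at 18.7 FPKM in Rtcb KO and 8.26 FPKM in WT; both rises were named after their values were seen. The oocyte NLR genes Nlrp4a, Nlrp4b, Nlrp4e and Nlrp9b were called lower, with log2 fold changes of −1.36, −1.75, −1.14 and −1.54. Nlrp4c, named after its value was seen, went the other way, at 17.4 ± 5.01 FPKM in Rtcb KO and 11.6 ± 4.63 FPKM in WT. It was not called as deposited (limma adjusted p = 0.114) but was called higher under each of the 3 other scalings. These NLR genes are close copies of one another, so fragments assigned among them are uncertain. The other peptidylarginine deiminases were low in both genotypes: Padi4, next to Padi6 in the genome, averaged 2.65 ± 0.572 FPKM in Rtcb KO and 2.80 ± 0.402 FPKM in WT and was not called.

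The nearest annotated genes with a row moved in both directions. Rcc2 beside Padi6 was higher (40.5 ± 12.0 FPKM in Rtcb KO and 23.3 ± 3.21 FPKM in WT, log2 fold change 0.74, limma adjusted p = 0.0187), a call lost without Rtcb KO replicate 1, Rtcb KO replicate 3 or WT replicate 1, at adjusted p of 0.0562, 0.0633 and 0.0604. Nlrp4e beside Nlrp5 was lower, as given above, and Vmn1r167 on its other side was at 0 in every library. Pde8b beside Zbed3 was at 1.47 ± 0.438 FPKM in Rtcb KO and 4.59 ± 0.428 FPKM in WT (−1.19). Rsl24d1 and Rab27a, on the sides of Khdc3, were called lower as deposited (−0.56 and −0.45) and lost the call under each of the 3 other scalings; Rab27a also lost it without each library in turn except WT replicate 3. On the far side of Ooep, Ddx43 averaged 1.05 ± 0.657 FPKM in Rtcb KO and 0.121 ± 0.0180 FPKM in WT, and beside Tle6, Tle2 averaged 0.0873 ± 0.0799 FPKM in Rtcb KO and 0.221 ± 0.133 FPKM in WT, both under the filter. BC025920 on the other side of Tle6 was not called (−0.30, limma adjusted p = 0.242). The small nucleolar RNA Snora47, inside a Zbed3 intron, averaged 788 ± 1136 FPKM in Rtcb KO and 2354 ± 778 FPKM in WT, with overlap. Its lower call (limma adjusted p = 0.0364) was lost without 5 of the 6 libraries in turn. Its 138 bases lie on the same strand as Zbed3, so fragments of unspliced Zbed3 RNA and of Snora47 cannot be told apart.

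Transcription factors of the oocyte moved in both directions. FIGLA, NOBOX, LHX8, SOHLH1 and SOHLH2 drive oocyte genes in the mouse ovary, and TBPL2 and TAF4B each belong to the basal transcription machinery. Of the 7 genes 6 were tested, with 2 called higher and 2 lower as deposited, and 3 higher and 1 lower with the factors removed or at equal totals. The shares over all tested genes were 9.29% higher and 54.0% lower as deposited. They were 25.7% higher and 18.0% lower with the factors removed, and 19.0% higher and 25.8% lower at equal totals. Figla was at 174.4, 174.3 and 165 FPKM in Rtcb KO libraries, against 113, 139.6 and 129 FPKM in WT libraries (log2 fold change 0.43, limma adjusted p = 0.00626), and all 3 Rtcb KO libraries were higher. Tbpl2 averaged 31.0 ± 4.67 FPKM in Rtcb KO and 16.98 ± 2.22 FPKM in WT (0.83). Lhx8 was lower as deposited (−0.56, limma adjusted p = 0.00553) and at 0.02 with the factors removed, and Sohlh2 was lower at a low level (2.998 FPKM in Rtcb KO and 7.24 FPKM in WT). Nobox averaged 608 ± 76.8 FPKM in Rtcb KO and 784 ± 142 FPKM in WT and was not called (limma adjusted p = 0.0739), and Sohlh1 averaged under 1 FPKM. Taf4b averaged 13.2 ± 4.10 FPKM in Rtcb KO and 9.16 ± 1.65 FPKM in WT and was not called as deposited (limma adjusted p = 0.130), but it was called higher at equal totals, after median-ratio rescaling and with the factors removed (adjusted p of 0.0310, 0.0147 and 0.0136).

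Among 36 other maternal-effect genes, 35 were tested, with 1 called higher and 24 lower, at a median log2 fold change of −0.58. Over all tested genes, 54.0% were called lower and 9.29% higher, at a median of −0.47. Dnmt1, the maintenance DNA methyltransferase, was at 138, 151 and 119.7 FPKM in Rtcb KO libraries, against 666, 625 and 574 FPKM in WT libraries, a log2 fold change of −2.19 beside the −2.18 of Padi6. Tet3 (−1.81), Dnmt3a (−1.31) and Hsf1 (−1.01) were also called lower. The 1 gene called higher was Zfp36l2, a regulator of mRNA decay, named after its value was seen (12.7 FPKM in Rtcb KO and 2.39 FPKM in WT). With the factors removed, 6 were called higher and 9 lower, where 25.7% of all tested genes were called higher and 18.0% lower.

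Genes downstream of TLE6 in the control of actin, cofilins with their kinases and phosphatases, and subunits of protein kinase A were 13 in the list. Of 12 tested, 9 were called lower and 0 higher, at a median of −0.57. Over all tested genes, 54.0% were called lower and 9.29% higher, at a median of −0.47. With the factors removed 2 were called lower and 2 higher, where 18.0% of all tested genes were called lower and 25.7% higher. Limk2 and Ssh3 (−1.12 each), Prkar2a (−0.72) and Cfl2 (−0.62) had the smallest p. Cfl2 and Prkar2a were not called with the factors removed.

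Outside the lists, the 6 genes whose profile over the 6 libraries lay closest to the members' mean profile, among 2057 others of 100 FPKM or more, were Eif2ak1, Tacc3, Nup88, Laptm4b, Nup85 and Plk1, at Euclidean distances of 0.108 to 0.188. Eif2ak1, the closest, was at 86.8, 77.0 and 80.7 FPKM in Rtcb KO libraries, against 202, 184 and 177 FPKM in WT libraries. Eif2ak1 encodes an eIF2 kinase, Tacc3 a spindle protein, Nup88 and Nup85 nucleoporins, Laptm4b a lysosomal membrane protein and Plk1 a cell cycle kinase. As their choice by profile entails, all 6 were lower in every Rtcb KO library, with log2 fold changes between −1.24 and −1.12. This likeness is a description, and the mean profile blends members that moved unequally.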

How the data were processed

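Polyadenylated RNA of 3 Rtcb KO and 3 WT libraries was measured, grouped by the labels. The submitters' processing notes name TopHat2 2.1.1, Cufflinks 2.2.1 and mouse build mm9; the annotation is not given in the sources used. The authors deposited FPKM for each gene symbol after scaling them to ERCC spike-ins, per the labels. How these factors were derived is not given. Among 427 fractions tried, 1 per genotype returned 100% of values to 6-digit Cufflinks numbers (tolerance 0.01 of the last digit), against at most 76.8% for the next. Spike-in error between libraries is thus not part of the spread.

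From these values limma 3.58.1 in R 4.3.3 (lmFit, eBayes with an intensity trend) was fitted on log2(FPKM + 1), genotype as the single term, two-sided. The scale understates changes of low genes. The step was tested on simulated data. Shares and ratios used exact permutation tests over libraries (scipy 1.17.1, numpy 2.4.6 and pandas 2.3.3 under Python 3.11.15; figures by matplotlib 3.10.9). Exon numbers and gene neighbours came from GENCODE vM21 and RefSeq, of a newer build than the values, matched by symbol (98.6% of tested genes). The members, gene lists, tests and exon boundaries were chosen with earlier results of these data known. Named were the members, Rtcb, every gene of lists of up to 7, the 4 of smallest p in longer lists, the 6 nearest profiles and the nearest genes on each side; for any other the text says that its value was seen first. Alternatives were pseudocounts of 0.1 and 5, no filter, a mean of at least 10 FPKM, 3 rescalings, no intensity trend, a replicate block and each library left out. Isoforms were not analysed here, and depth per library is unknown.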

Additional observations from a re-analysis of the deposited data

How the results depend on the processing

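The calls of Padi6, Nlrp5, Tle6 and Zbed3 kept their direction and their side of the threshold under every alternative run. The count of members called lower was 5 as deposited and 4 to 5 with a library left out, and the count called higher was 0 as deposited and 1 under each of the 3 rescalings. Over all genes, 3107 were called lower at equal totals, 2606 after median-ratio rescaling and 2161 with the genotype factors removed, against 6501 as deposited; 2283, 2746 and 3097 were called higher under these, and 490 at a mean of at least 10 FPKM, against 1118. Equal totals and median-ratio rescaling divide each library by 1 factor, and removal of the genotype factors divides each genotype by 1. They turned Ooep to 0.27, 0.35 and 0.42 and Khdc3 to 0.079, 0.16 and 0.23 on the log2 scale, in the same order of settings. Ube2d3 turned to 0.32 and Rab27a to 0.048 after median-ratio rescaling, and with the factors removed Ube2d3 was at 0.39, Rab27a at 0.11 and Rsl24d1 at 0.021. The difference by exon number was −0.56 to −0.47 with a library left out, and −0.59 among genes of at least 100 FPKM. Libraries with the same number correlated at 0.14, −0.10 and 0.04 in their deviations from the genotype means. These low values do not settle whether same-numbered libraries were handled together, which is unknown. With a replicate block, 6432 genes were called lower and 1108 higher, and 5 members lower. Depth is unknown, 3 against 3 libraries cannot reach an exact p under 0.1, and values per gene do not show isoforms.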
